A study of Rattus norvegicus with 16 samples.

Results

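The difference between BRCA1+/- and wild-type kidney cortex after 1 week of Fe-NTA was examined on 6 of the 16 arrays of the study, the 3 titled as BRCA1+/- and the 3 titled as wild type at that time point, across every gene with a usable probe. The agent, ferric nitrilotriacetate (Fe-NTA), carries iron into the proximal tubule and injures it by oxidation. All rats were male Jcl:SD (Sprague-Dawley) animals, 4 weeks old when injections began, and the 6 arrays were taken by their labels of genotype, treatment and time. The study also arrayed untreated cortex and cortex after 3 weeks of injections in both genotypes, which serve below as background.

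The BRCA1+/- rats, called heterozygous here, carried a change in 1 of their Brca1 copies that the labels do not describe further, so the heterozygous state of the whole animal is the model. Both 1-week groups had intraperitoneal injections of 5 mg iron/kg on the first 2 occasions and 7 mg iron/kg on the last 3, and were killed 48 h after the final dose. The 3-week groups went on to 10 mg iron/kg. Untreated cortex was on 2 heterozygous and 2 wild-type arrays, and the labels give neither the age of those rats nor a vehicle. The protocol started with 18 heterozygous and 17 wild-type rats, and the labels do not say which of them were arrayed. The labels do not say that each array is a separate rat, so every p-value measures the spread between these samples only.

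The proximal tubule reabsorbs most of the filtered glucose, amino acids, phosphate and organic anions, burns fatty acids for energy, and makes glucose. After an oxidative insult, surviving tubule cells are known to lose this program of transporters and enzymes, to switch on injury genes such as Havcr1 (kidney injury molecule) and Vim, and to divide before they differentiate again. BRCA1 acts in repair of DNA breaks by homologous recombination.

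Levels below are processed signals on the log2 scale with each array's 75th percentile set to 0, and differences are heterozygous minus wild type on that scale. Levels of different genes are not comparable, since each is read by its own probe. The share of probes well above background was 37.4% to 51.6% on the heterozygous arrays and 33.1% to 45.8% on the wild-type arrays, and no spot was saturated. Wild-type replicate 3 stood apart: over the 16031 genes tested it correlated at 0.905 and 0.908 with the others of its group, which correlated at 0.97 with each other, and 37.1% of its genes lay more than 1 log2 unit from the mean of those others. For the other 5 arrays that share ran from 6.14% to 12.7%, and the 3 heterozygous arrays correlated at 0.963 to 0.969. Heterozygous replicate 1 correlated at 0.975 with wild-type replicate 1, above any pair within the heterozygous group, and at 0.88 with wild-type replicate 3. Both of these wild-type arrays lay on the same slide as it. Slide 1 held heterozygous replicate 1 with wild-type replicates 1 and 3, and slide 2 held the remaining 3 arrays.

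After 1 week the heterozygous cortex held more transcript of proximal tubule enzymes and transporters than the wild-type cortex, and less of a small set of genes of the cytoskeleton, chromatin and cell adhesion. In limma's fit of all 16 arrays, 90 of 16031 genes passed a Benjamini-Hochberg adjusted p of 0.05 (0.561%). Of these, 79 were higher in heterozygous cortex (0.493% of genes tested) and 11 were lower (0.0686%). In all, 2027 genes, the called ones among them, had an unadjusted p under 0.05. In all 90 the 3 heterozygous arrays lay entirely above or below the 3 wild-type arrays, which was true of 1250 genes in the upward direction (7.8%) and 728 in the downward direction (4.54%) over the whole table. The median difference of all genes was 0.02, and 52% of the differences were positive.

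The size of this set depended on single arrays. Leaving out heterozygous replicate 1, 2 or 3 gave 3, 1 and 136 calls, and leaving out wild-type replicate 1, 2 or 3 gave 149, 21 and 4. A fit of the 6 arrays of 1 week alone made no call in limma, with 1072 genes at an unadjusted p under 0.05. With the slide as a block 34 genes were called, and with array brightness as a covariate 13. Since every called gene was one whose groups did not overlap, leaving out an array or fitting the 6 arrays alone could not turn its sign, and the directions under those settings are no sign of stability.

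**Figure D1:**
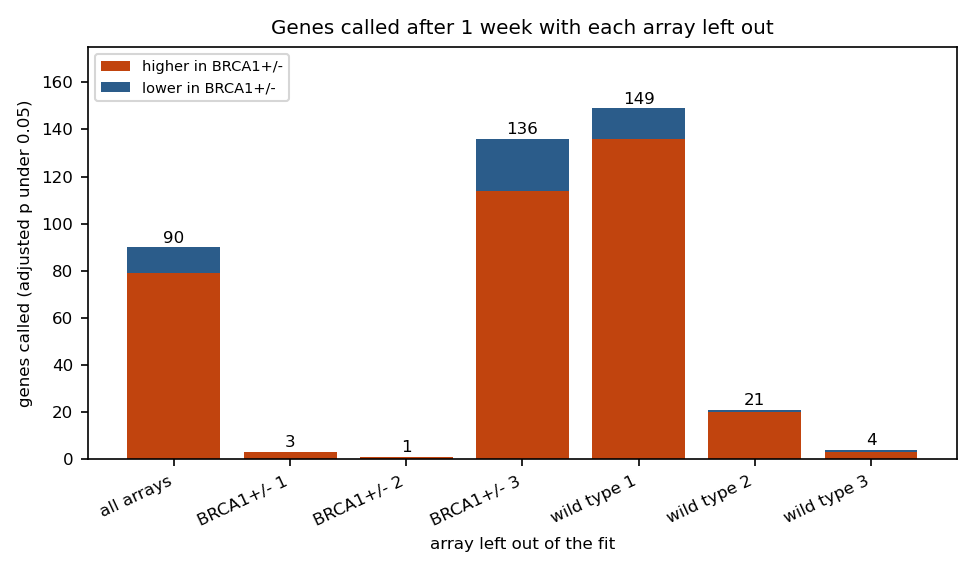
Number of genes called in the 1-week genotype difference (adjusted p under 0.05, limma) with all arrays and with each of the 6 arrays left out of the fit, split into genes higher and lower in BRCA1+/- cortex. The count is 90 with all arrays and runs from 1 without heterozygous replicate 2 to 149 without wild-type replicate 1.

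Among the proximal tubule enzymes, 11 of the 31 tested were higher in heterozygous cortex and none was lower, out of 34 listed. The median of the 31 was 1.57, against 0.02 over all genes, and it was 1.36 without wild-type replicate 3. In 24 of the 31 the heterozygous arrays all lay above the wild-type arrays, and in none did they all lie below. The mean level of the list was 3.12, 3.58 and 2.62 on the heterozygous arrays, against 1.80, 1.48 and 1.16 on the wild-type arrays, so that the groups did not overlap. In these whole-tissue samples, fewer cells of a type and less RNA per cell cannot be told apart.

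Pck1 encodes the cytosolic enzyme that starts gluconeogenesis from oxaloacetate. Its level was 5.17, 6.03 and 4.16 on the heterozygous arrays, against 0.46, 1.25 and 2.52 on the wild-type arrays. Every heterozygous array was above every wild-type array, by a mean of 3.71 ± 0.58 (SE), or 13.1-fold, with an adjusted p of 0.0226 in limma. Untreated cortex averaged 5.54 in heterozygous and 5.77 in wild-type rats, so the wild-type 1-week level stood farther below it. Without wild-type replicate 3, the highest of its group for this gene, the difference was 4.27 with an adjusted p of 0.0432. With normexp background correction it was 3.33, with an adjusted p of 0.0798 in limma. Within slide 1 and slide 2 it was 3.68 and 3.85, with only 1 array of 1 genotype on each slide, and its sign could not turn there.

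G6pc1, the catalytic subunit of glucose-6-phosphatase, releases free glucose at the end of the same pathway. It stood at 5.41, 5.57 and 4.15 on the heterozygous arrays and at 2.56, 1.51 and 2.03 on the wild-type arrays. The groups were apart, with a difference of 3.01 ± 0.48 and an adjusted p of 0.0226 in limma. The estimate without wild-type replicate 3 was also 3.01, but its adjusted p there was 0.0836.

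Upb1 and Dpys, which act in sequence in the breakdown of pyrimidines, were both higher. Upb1 was at 0.33, 1.71 and 0.88 on the heterozygous arrays, against -2.34, -1.94 and -1.71 on wild-type arrays (7.84-fold, adjusted p = 0.0173, limma). It was not well above background on any wild-type array, so this size rests on dim spots and is no lower bound. The size depends on the background step: with normexp correction the Upb1 difference was 1.03 on the log2 scale, with an adjusted p of 0.211. Dpys was at 1.52, 1.25 and -0.17 on the heterozygous arrays, against -1.72, -1.54 and -1.005 on the wild-type arrays, and the difference was 2.29 ± 0.37 with an adjusted p of 0.0226. Dpys was above background on only 1 wild-type array, and with normexp correction its difference was 0.95 (adjusted p = 0.192, limma). Miox, which opens the inositol ring in the tubule, was at 3.07, 3.71 and 1.92 on the heterozygous arrays, against -0.44, 1.51 and -0.71 on the wild-type arrays. Its difference of 2.78 ± 0.58 (adjusted p = 0.0454) rested more on slide 1, where it was 3.65, than on slide 2, where it was 1.31.

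The remaining called enzymes of the list, named after their values were seen, were Gba3, Khk (ketohexokinase, the entry step of fructose use), Kmo, Hgd, Acy3 and Cltrn (collectrin, a partner of amino acid transporters). Their differences lay between 1.63 for Cltrn and 2.497 for Gba3. The list was not uniform: 3 of the 31 members had a negative difference, the lowest being -0.58 for the brush-border peptidase Anpep, which did not pass the test.

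**Figure D2:**
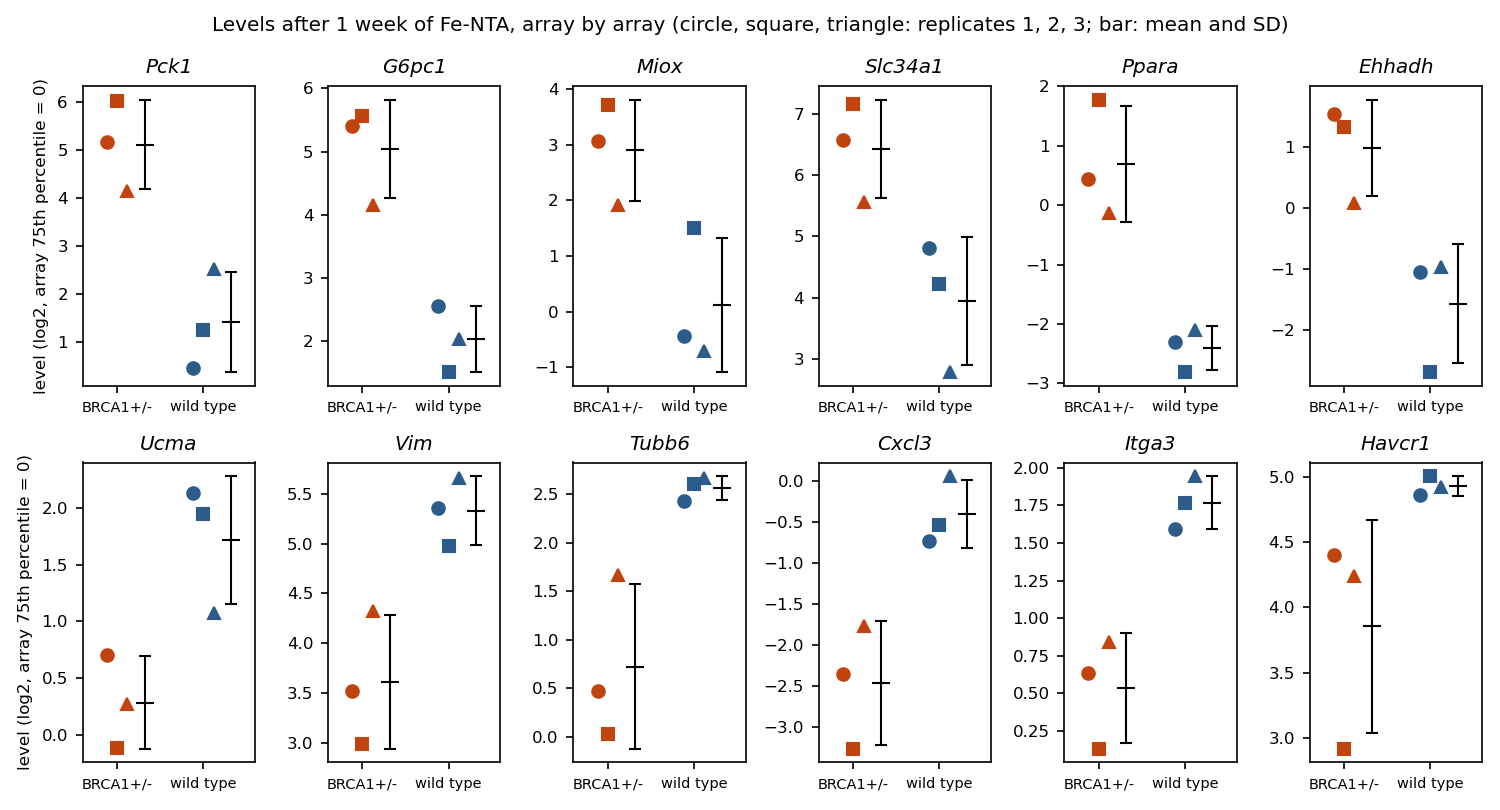
Level of 12 genes on each of the 6 arrays (log2 processed signal, array 75th percentile at 0), BRCA1+/- left and wild type right, with symbols for replicates 1 to 3 and a bar for the mean and SD of 3 arrays. In each panel the genotypes do not overlap. The upper 6 genes were called higher in BRCA1+/- cortex, the lower row shows 5 called lower and Havcr1, which was not called.

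Many proximal tubule genes are known targets of the factor HNF1, whose half-site is GTTAAT. The promoters of Pck1, G6pc1 and Slc34a1 are shown because the first 2 carry the largest called differences in glucose production and the other is the phosphate carrier of the same cells. The genes and motifs were chosen after the values were seen. Each sequence is RefSeq's, in build GRCr8, running 5′ to 3′ on the strand of the gene from 250 bases before to 50 bases after its start, with GTTAAT or its reverse complement ATTAAC in capitals.
Pck1 (chr3:182348322-182348621, + strand): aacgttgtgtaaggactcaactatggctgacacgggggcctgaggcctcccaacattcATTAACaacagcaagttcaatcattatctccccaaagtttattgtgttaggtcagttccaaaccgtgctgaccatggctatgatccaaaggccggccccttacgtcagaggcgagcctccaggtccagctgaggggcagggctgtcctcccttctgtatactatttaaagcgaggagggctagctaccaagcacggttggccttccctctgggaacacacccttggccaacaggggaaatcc
G6pc1 (chr10:86807409-86807708, + strand): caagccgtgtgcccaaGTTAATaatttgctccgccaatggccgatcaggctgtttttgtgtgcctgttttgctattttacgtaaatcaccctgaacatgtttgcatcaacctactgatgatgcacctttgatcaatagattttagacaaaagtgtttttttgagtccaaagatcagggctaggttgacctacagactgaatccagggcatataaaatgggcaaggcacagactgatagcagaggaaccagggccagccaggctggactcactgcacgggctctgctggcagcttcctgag
Slc34a1 (chr17:9238934-9239233, - strand): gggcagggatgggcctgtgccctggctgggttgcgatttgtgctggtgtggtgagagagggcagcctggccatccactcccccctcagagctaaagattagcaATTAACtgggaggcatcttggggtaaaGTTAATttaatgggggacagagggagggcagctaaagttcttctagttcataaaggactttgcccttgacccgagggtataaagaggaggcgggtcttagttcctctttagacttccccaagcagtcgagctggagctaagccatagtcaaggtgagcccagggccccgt
Of the 61 genes with a plain symbol called higher, 50 matched 51 RefSeq promoters, and 8 of these 51 (15.7%) held GTTAAT on either strand: those of Pck1, G6pc1, Slc34a1, Miox, Slc6a19, Slc22a25, Slc39a5 and Cltrn. The motif was in 7.45% of all 33469 promoters of that length, and in 1 of 8 matched promoters of genes called lower. The DR1 repeat, a site of PPAR and HNF4 receptors searched with 1 free base between its repeats, and the E2F sites TTTCGCGC and TTTGGCGC were in none of the 51 or the 8, and in 0.0538%, 0.326% and 0.493% of all promoters. A match describes the letters in this window and is not evidence of binding.

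Of the 29 tested transporters of the early proximal tubule, 2 were higher in heterozygous cortex and none was lower, with 9 of the 29 apart in the upward direction and none apart in the downward direction. The median of the list was 1.01, and it was 0.75 without wild-type replicate 3. Slc34a1, the main apical phosphate carrier, was at 6.57, 7.15 and 5.57 on the heterozygous arrays, against 4.82, 4.23 and 2.79 on the wild-type arrays. The difference was 2.48 ± 0.50 (adjusted p = 0.0397, limma), and 1.90 with an adjusted p of 0.121 without wild-type replicate 3. Slc6a19, which takes up neutral amino acids, was above background on 2 heterozygous arrays and on none of the wild-type arrays. By the processed signal it was at least 3.00-fold higher in heterozygous cortex (adjusted p = 0.039, limma). That is no floor under normexp background correction, where its log2 difference was 0.36 (adjusted p = 0.576). Slc22a6, the basolateral organic anion transporter, and Slc34a3, a further phosphate carrier, had differences of 2.21 and 2.70 with adjusted p-values of 0.0505 and 0.0749.

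Fatty acid oxidation ran the same way. Of 29 genes tested, 28 had a positive difference, with a median of 0.74, and 2 passed the test, both higher. Ppara, the nuclear receptor that switches on fatty acid breakdown, was at 0.44, 1.78 and -0.13 on the heterozygous arrays, against -2.30, -2.81 and -2.11 on the wild-type arrays, with a difference of 3.10 ± 0.45 (adjusted p = 0.0173, limma) and 2.08 at the lowest of its 3 usable probes. The probe used was not above background on any wild-type array, and another of the 3 was on 1 of them, so the size of this difference rests on dim wild-type spots. With normexp correction the Ppara difference was 0.91 (adjusted p = 0.331, limma). Ehhadh, a peroxisomal enzyme of the pathway and a known Ppara target, was at 1.54, 1.33 and 0.09 on the heterozygous arrays and at -1.05, -2.69 and -0.96 on the wild-type arrays, a difference of 2.56 ± 0.51 (adjusted p = 0.0387). Under normexp correction the Ehhadh difference was 1.11 (adjusted p = 0.212, limma). The microsomal hydroxylase Cyp4a3 and the mitochondrial hydratase Echs1 had differences of 1.65 and 1.01, with adjusted p-values of 0.0564 and 0.0588. The median of the list was 0.64 without wild-type replicate 3.

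Subunits of oxidative phosphorylation showed smaller differences in one direction. All 29 were tested and none passed, while 28 of the 29 differences were positive and 15 had the groups apart in that direction. The median was 0.51 with all arrays and 0.28 without wild-type replicate 3. Ndufv2 of complex I had the smallest p of the list: it was at 4.78, 5.42 and 5.23 on the heterozygous arrays, against 4.51, 4.27 and 4.51 on the wild-type arrays, with a difference of 0.71 ± 0.22 and an adjusted p of 0.179 in limma.

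Markers of later nephron segments also had positive medians. In the thick ascending limb and distal convoluted tubule, 16 of 17 tested genes had a positive difference, the median was 0.80, and 1 gene passed. That gene, Wnk1, a kinase that sets sodium chloride transport in the distal convoluted tubule, was at 4.56, 4.63 and 4.51 on the heterozygous arrays, against 3.52, 3.48 and 3.02 on the wild-type arrays (difference 1.23 ± 0.26, adjusted p = 0.0454, limma). Slc12a3, the thiazide-sensitive cotransporter, was at 4.73, 4.90 and 4.71 on heterozygous arrays and at 4.00, 3.81 and 3.79 on wild-type arrays, with an adjusted p of 0.104. The collecting duct list had a median of 0.50 with 18 of 19 differences positive, and Atp6v0d2, a subunit of the proton pump of intercalated cells, passed (1.84, 2.30 and 2.12 on heterozygous arrays against 1.08, 1.08 and 0.82 on wild-type arrays, adjusted p = 0.0327). Both medians moved little without wild-type replicate 3, to 0.79 and 0.55. In that setting the adjusted p-values of Wnk1 and Atp6v0d2 were 0.114 and 0.0836 in limma, and with normexp correction they were 0.214 and 0.0655.

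Outside these lists, the largest called differences included other genes of kidney metabolism. Ces1e, a carboxylesterase, was above background on all 3 heterozygous arrays and on no wild-type array. By the processed signal it was at least 4.01-fold higher in heterozygous cortex (adjusted p = 0.0327, limma). That is no floor under normexp background correction, where its log2 difference was 0.59 (adjusted p = 0.59). Dio1, which activates thyroid hormone, was at -0.54, 1.10 and 0.27 on heterozygous arrays and at -1.68, -3.24 and -2.42 on wild-type arrays (difference 2.72 ± 0.47, adjusted p = 0.0282). Slc51a, a subunit of the basolateral bile acid and steroid exporter, differed by 2.70 ± 0.50 (adjusted p = 0.0321). Dio1 and Slc51a were each above background on 1 wild-type array. With normexp correction their differences were 0.80 and 0.77 (adjusted p = 0.333 and 0.359, limma). Nat8f3 and Nat8b, acetyltransferases of the kidney, differed by 2.83 and 2.71, but these genes and Ces1e belong to families with near-identical members whose probes may not tell them apart. Across the 79 genes called higher, the difference had a median of 2.10. Of them, 13 were above background on no wild-type array, so the sizes of their differences rest on dim spots. Wild-type replicate 3, the array that stood apart, was the lowest wild-type array for 49 of the 79. How often it was the lowest over all genes was not counted, so this share has no baseline.

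Among NRF2 targets and glutathione enzymes, 2 of 38 tested genes passed, both higher in heterozygous cortex, and the median was 0.24, or 0.15 without wild-type replicate 3. They were the glutathione transferases Gsta2 (5.84, 6.51 and 5.68 on heterozygous arrays, 3.92, 4.16 and 2.70 on wild-type arrays) and Gsta5 (6.01, 7.03 and 5.99 on heterozygous arrays, 4.08, 4.73 and 3.12 on wild-type arrays). Without wild-type replicate 3 their adjusted p-values were 0.0888 for Gsta2 and 0.0836 for Gsta5 in limma. With normexp correction those were 0.121 and 0.113. These transferases detoxify lipid peroxidation products, and the pair is so alike in sequence that their probes may read each other's transcript. Catalase (Cat) was at 1.31, 2.39 and 1.35 on heterozygous arrays and at 0.38, -0.02 and 0.73 on wild-type arrays, with an adjusted p of 0.0939 in limma. Hmox1, which breaks down heme, had a difference of -0.75 ± 0.45 and an adjusted p of 0.519.

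No gene of iron handling (23 tested) or of ferroptosis regulation (25 tested) passed, and the medians were 0.27 and 0.24. Aco1, the cytosolic aconitase that doubles as an iron sensor, came closest: it was at 3.14, 3.05 and 2.81 on heterozygous arrays, against 2.13, 2.07 and 1.75 on wild-type arrays, apart by 1.01 ± 0.22 with an adjusted p of 0.0516. The transferrin receptor Tfrc differed by 0.32 ± 0.41, and Gpx4, the peroxidase that restrains ferroptosis, by 0.39 ± 0.32, with adjusted p-values of 0.794 and 0.67 in limma. Slc7a11, the cystine importer, was not tested, since no group had it above background on every array. The median of the iron list was -0.02 without wild-type replicate 3, 0.07 without heterozygous replicate 1 and 0.43 without wild-type replicate 1, and that of the ferroptosis list was 0.13 without heterozygous replicate 1.

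The 11 genes lower in heterozygous cortex had a median difference of -1.76, and their groups were apart, as those of every called gene were. Vim, the intermediate filament that dedifferentiated tubule cells and fibroblasts express, was at 3.52, 2.99 and 4.32 on heterozygous arrays and at 5.36, 4.97 and 5.67 on wild-type arrays, a difference of -1.72 ± 0.35 (adjusted p = 0.0404, limma). Tubb6, a tubulin, was at 0.47, 0.03 and 1.67 on heterozygous arrays and at 2.43, 2.60 and 2.66 on wild-type arrays (adjusted p = 0.0318). For both genes each heterozygous array lay below each wild-type array.

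Itga3, the alpha subunit of a laminin receptor of the tubule, was at 0.63, 0.13 and 0.84 on heterozygous arrays, against 1.59, 1.76 and 1.94 on wild-type arrays (difference -1.23 ± 0.24, adjusted p = 0.0339, limma). Cxcl3, a neutrophil chemokine, differed by -2.07 ± 0.36 (adjusted p = 0.0282) with 1 heterozygous array above background. With normexp correction the Cxcl3 difference was -0.54 (adjusted p = 0.262, limma). Pdgfb, a growth factor for fibroblasts and pericytes, was above background on no heterozygous array and on 2 wild-type arrays. By the processed signal it was at least 1.96-fold lower in heterozygous cortex (adjusted p = 0.0393, limma). That is no floor under normexp correction, where its log2 difference was -0.34 (adjusted p = 0.48). The linker histone H1f5 and the core histone Hist1h2ai differed by -2.10 and -1.99 (adjusted p = 0.0282 and 0.0454). Histone genes of these clusters are near-identical copies, and their probes may not tell them apart. Without wild-type replicate 3 the adjusted p of Ucma was 0.0431, and those of the other 9 lower genes with a plain symbol ran from 0.0836 to 0.137.

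The list of tubular injury markers as a whole had a median of -0.57, with 22 of 30 differences negative and 5 genes apart in that direction, and only Vim passed. Havcr1 was at 4.40, 2.92 and 4.24 on heterozygous arrays and at 4.86, 5.00 and 4.92 on wild-type arrays, so that the groups were apart, but its difference of -1.07 ± 0.41 had an adjusted p of 0.283 in limma. Clu, a chaperone secreted by injured tubules, differed by -1.34 ± 0.37 (adjusted p = 0.117), Lcn2 by -0.61 and Spp1 by -0.53, and the groups overlapped for both of these. The median of the list was -0.31 without heterozygous replicate 2, -0.30 without wild-type replicate 1 and -0.73 without wild-type replicate 3, and it was 0.06 within slide 1 and -0.78 within slide 2.

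Genes of the cell cycle had the lowest medians, and none passed. Of 27 mitosis genes tested, 26 had a negative difference (median -0.88), and of 25 genes of DNA replication and S phase 24 did (median -0.63). Without heterozygous replicate 2 these medians were -0.44 and -0.23. The mean level of the mitosis list was 0.39, -0.93 and 0.61 on the heterozygous arrays, against 0.63, 1.15 and 0.93 on the wild-type arrays. The groups were apart, but heterozygous replicate 2 lay more than 1 unit below the others and heterozygous replicate 3 lay just below wild-type replicate 1. Ccnb1, the cyclin of mitotic entry, was at -0.23, -1.66 and 0.25 on heterozygous arrays and at 0.24, 0.93 and 1.05 on wild-type arrays, with overlap (adjusted p = 0.241, limma). Mki67 was at 1.23, 0.33 and 1.95 on heterozygous arrays and at 1.73, 2.69 and 1.48 on wild-type arrays (adjusted p = 0.414). Uhrf1, which maintains DNA methylation at replication forks, had the smallest p of these lists: the groups were apart by -1.97 ± 0.55, with an adjusted p of 0.123.

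Brca1 itself was at -0.04, -1.61 and -0.28 on the heterozygous arrays, against 0.26, 0.72 and -0.64 on the wild-type arrays. The groups overlapped, and the difference of -0.75 ± 0.66 did not pass (adjusted p = 0.69, limma). Its probe lies at chr10:90512623-90512682 on the minus strand in build rn4 per the file headers. Since the altered part of the gene is not given, this probe does not check the labels. Its second probe was above background on none of these arrays. None of the 20 tested genes of the BRCA1 and homologous recombination list passed, out of 32 listed, and 17 of the 20 differences were negative (median -0.42). Bard1, the partner of BRCA1, was at 1.17, -0.56 and 1.02 on heterozygous arrays, against 1.39, 1.80 and 0.85 on wild-type arrays, with overlap (adjusted p = 0.417, limma). Heterozygous replicate 2 was the lowest array for both Brca1 and Bard1, and the median of the list was 0.08 within slide 1, where that array is absent, and -0.67 within slide 2. It was -0.13 without heterozygous replicate 2 and -0.27 without wild-type replicate 2. Of the 24 p53 targets none passed (median 0.04), and Cdkn1a differed by 0.44 ± 0.33 with an adjusted p of 0.633.

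**Figure D3:**
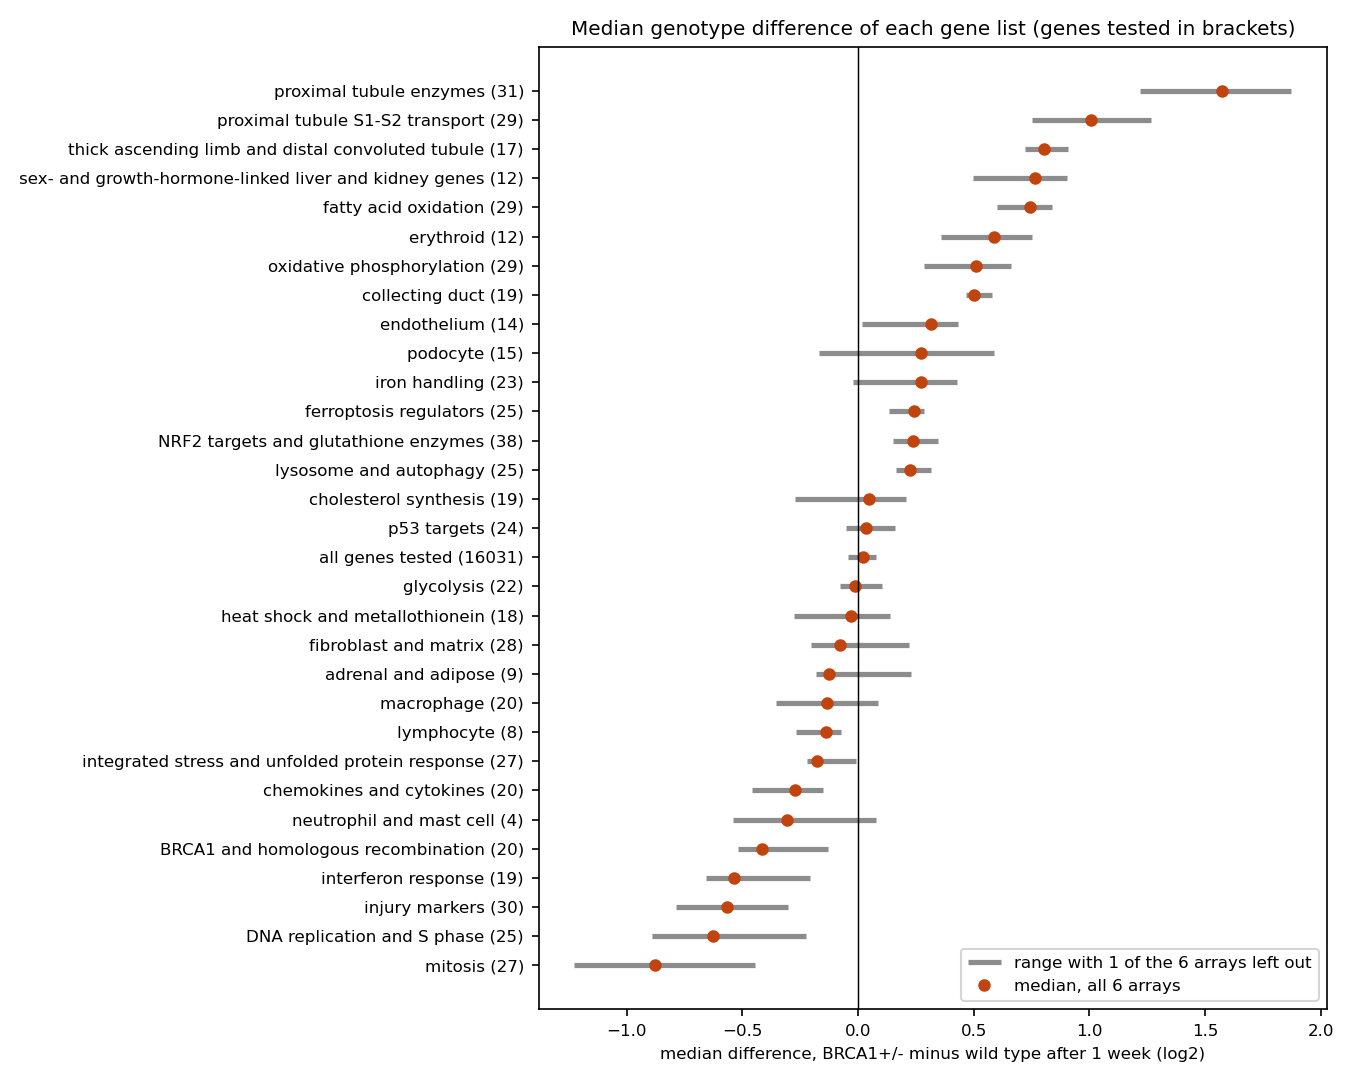
Median genotype difference (BRCA1+/- minus wild type after 1 week, log2) over the tested genes of each of 30 lists and over all 16031 genes, with a line for the range when 1 of the 6 arrays is left out. Proximal tubule enzymes are at the top (1.57) and mitosis at the bottom (-0.88), which keeps its sign over that range. For the enzymes the sign could not turn, since 24 of the 31 had the heterozygous arrays all above the wild-type arrays.

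Immune and stromal lists held few differences. Of 19 interferon-response genes none passed, with a median of -0.54, which was -0.21 without wild-type replicate 1, -0.26 without heterozygous replicate 1 and -0.34 without wild-type replicate 2. Psmb9, an immunoproteasome subunit, was at 2.73, 2.08 and 2.65 on heterozygous arrays, against 3.55, 3.46 and 3.54 on wild-type arrays, and missed the threshold (difference -1.03 ± 0.22, adjusted p = 0.0516, limma). Macrophage markers had a median of -0.13 over 20 genes with none passing, between -0.36 and 0.09 with 1 array left out, and their mean level ran from 1.30 to 1.78 on heterozygous arrays and from 1.49 to 2.05 on wild-type arrays. The receptor Fcgr3a was their largest difference at -1.83 (adjusted p = 0.0709). Of 24 macrophage markers listed 20 were testable, whereas 8 of 20 lymphocyte markers and 4 of 20 neutrophil and mast cell markers were, and Cd3e, Cd8a and Ms4a1 were among those not above background. In the fibroblast and matrix list Vim was the only 1 of 28 genes to pass, and the median was -0.08, between -0.20 and 0.22 with 1 array left out. Cxcl12, a chemokine of stromal cells, was at 2.62, 2.98 and 2.18 on heterozygous arrays and at 1.78, 1.23 and 0.50 on wild-type arrays, with an adjusted p of 0.0723.

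None of 12 erythroid genes, which mark blood in the tissue, passed. Their median was 0.59, but 0.36 without wild-type replicate 1, 0.07 with normexp correction, 0.22 with dim spots raised to the limit of detection and 0.02 with no filter on dim probes, and their mean level ran from -0.03 to 0.20 on heterozygous arrays and from -0.69 to -0.19 on wild-type arrays. Adrenal and adipose markers ran from 0.44 to 0.58 on heterozygous arrays and from 0.11 to 0.57 on wild-type arrays. No podocyte or endothelial gene passed. The podocyte median was 0.27, between -0.17 (without wild-type replicate 3) and 0.59 (without heterozygous replicate 3) with 1 array left out, 0.85 within slide 1 and -0.55 within slide 2. The endothelial median was 0.32, and 0.02 without wild-type replicate 2. Genes linked to sex and growth hormone in liver and kidney had a median of 0.76 over 12 genes, or 0.50 without heterozygous replicate 2, among them Kap, the androgen-regulated kidney protein, at 8.08, 8.65 and 8.08 on heterozygous arrays and 7.08, 5.92 and 4.31 on wild-type arrays (adjusted p = 0.092, limma). The part of blood content, slide or array brightness in the tubule differences was not tested beyond the settings above.

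In the remaining lists medians were -0.18 for the integrated stress and unfolded protein response, -0.03 for heat shock and metallothionein, -0.27 for chemokines and cytokines, 0.23 for lysosome and autophagy, 0.05 for cholesterol synthesis and -0.01 for glycolysis, and no member passed. Cxcl3, called lower above, is not a member of the chemokine list. With 1 array left out the sign held for the chemokine and lysosome lists, and the other medians were near 0 or crossed it. The chemokine median did turn over all settings run, reaching 0.18 at its highest. Pkm, a pyruvate kinase of glycolysis, was at 2.56, 2.76 and 3.30 on heterozygous arrays and at 3.32, 3.77 and 3.51 on wild-type arrays (difference -0.66 ± 0.28, adjusted p = 0.338, limma). Neu1, a lysosomal sialidase, was at 0.28, 0.71 and -0.01 on heterozygous arrays and at -0.49, -0.85 and -0.72 on wild-type arrays (difference 1.02 ± 0.23, adjusted p = 0.0615).

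The genotypes were then compared in the other conditions. In untreated cortex and after 3 weeks no gene passed in limma (0% each), with 749 and 931 genes at an unadjusted p under 0.05. Over the 79 genes called higher after 1 week, the heterozygous minus wild-type difference had a median of -0.16 in untreated cortex, where 32 were positive and 47 negative, and of -0.33 after 3 weeks, where 21 were positive and 58 negative. Over all genes tested, 48.9% of differences were positive in untreated cortex and 55% after 3 weeks. Over the 11 genes called lower, the medians were 0.34 in untreated cortex and 0.19 after 3 weeks. The untreated and 3-week levels entered neither 1-week mean, but those arrays shared in the estimate of the spread and in the probe filter that the calls rest on.

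**Figure D4:**
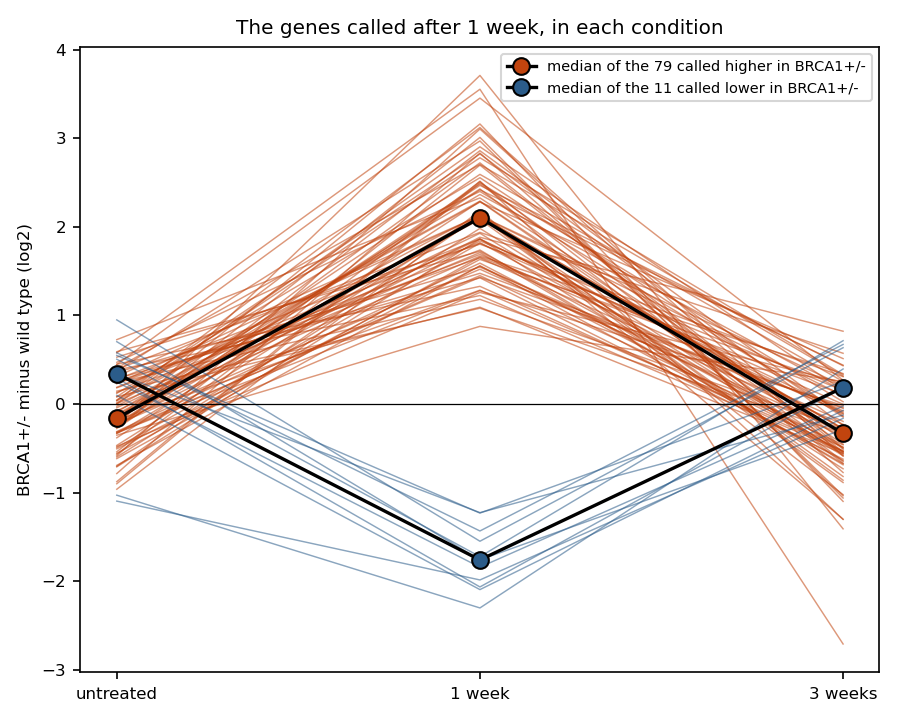
Genotype difference (BRCA1+/- minus wild type, log2) of the 90 genes called after 1 week, in untreated cortex, after 1 week and after 3 weeks, 1 line per gene, with medians in black. The 1-week values chose the genes, and the 79 genes higher at 1 week have medians of -0.16 in untreated and -0.33 in 3-week cortex.

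Set beside the untreated arrays of the same genotype, the genes called higher were lower after 1 week than in untreated cortex in both genotypes. Their median change was -1.51 in heterozygous rats, with 39 of 79 passing as lower (3.2% of all genes did), and -3.84 in wild-type rats, with 78 of 79 passing (14.3% of all genes). The genes called lower had median changes of 1.38 in heterozygous rats, with 7 of 11 passing as higher (4.25% of all genes), and of 3.09 in wild-type rats, with 11 of 11 (12.8% of all genes). In 75 of the 79 and in 10 of the 11 both genotypes moved the same way from their untreated means. The 1-week arrays enter both the choice of these genes and these changes, so the values stand side by side with no test of their own.

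Whether the 1-week difference itself differed from that of untreated cortex was tested as an interaction. No gene passed (0% of 16031, smallest adjusted p 0.276, limma), and 1225 genes had an unadjusted p under 0.05. Without heterozygous 1-week replicate 3 the count was 7. Ppara had the second smallest unadjusted p of the genes with a plain symbol, 0.000125, for an interaction of 3.69 ± 0.72, and Tmem121, Pdgfb, Gnaz, Car3 and Sorcs1 completed the set of 6 with p-values of 0.000108 to 0.000209. For Car3, Gnaz, Sorcs1 and Tmem121 the untreated genotype difference was the larger part: Car3, a carbonic anhydrase, averaged 3.45 in heterozygous and 2.58 in wild-type cortex at 1 week, and its untreated means were -0.75 in heterozygous and 2.23 in wild-type cortex. Interaction estimates rest on 2 untreated arrays a genotype.

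Between 1 and 3 weeks the genotype difference changed for 19 genes (0.119%), each with a more positive heterozygous minus wild-type value at 1 week than at 3 weeks, and 14 of the 19 were also called at 1 week. The 1-week means of Pck1 were 5.12 in heterozygous and 1.41 in wild-type cortex. Its 3-week means were 3.91 in heterozygous and 5.32 in wild-type cortex, the opposite order. The 1-week minus 3-week difference was 5.12 ± 0.83 with an adjusted p of 0.042 in limma. Ces1e (6.26 ± 0.95), Upb1 (4.00 ± 0.57), Pfn3 (2.97), Sbspon (2.28) and Fn3k (3.00), an enzyme that removes sugar from glycated proteins, gave the smallest p-values beside it. Ces1e, Upb1 and Pfn3 were above background on no wild-type 1-week array, so the sizes of their changes rest on dim spots and are not exact. The count was 34 without wild-type 1-week replicate 3, 93 without heterozygous 1-week replicate 3, 0 without heterozygous 1-week replicate 2 and 0 without wild-type 1-week replicate 2. Time, age and dose differ together between 1 and 3 weeks and cannot be told apart.

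**Figure D5:**
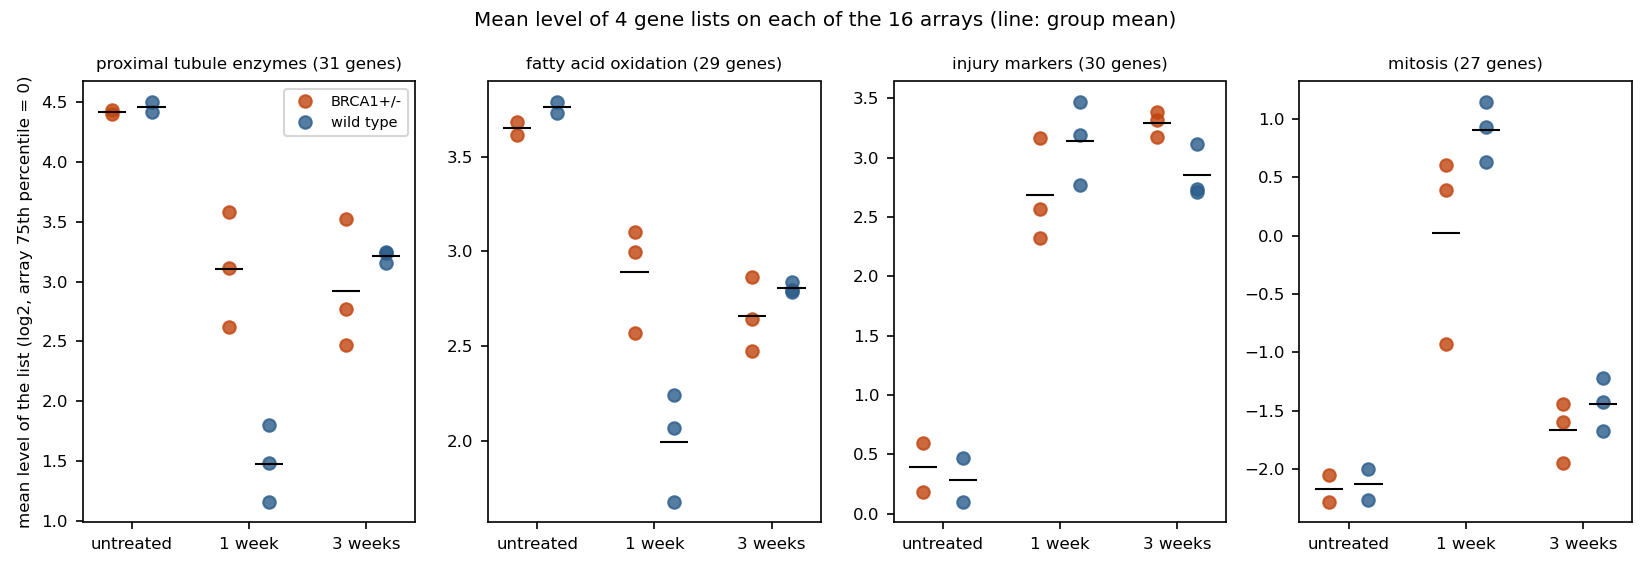
Mean level of 4 gene lists on each of the 16 arrays (log2, array 75th percentile at 0), by time with BRCA1+/- left of wild type, with a line at each group mean. After 1 week proximal tubule enzymes lie between 2.62 and 3.58 in BRCA1+/- and between 1.16 and 1.80 in wild-type cortex, while the genotypes overlap for that list after 3 weeks.

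The means of the proximal tubule and fatty acid oxidation lists overlapped between genotypes after 3 weeks. Those of the collecting duct list did not, and their order was opposite to that at 1 week. They ran from 1.73 to 1.75 on the heterozygous 3-week arrays and from 2.04 to 2.54 on the wild-type 3-week arrays. The mean level of proximal tubule enzymes ran from 2.47 to 3.52 on the heterozygous 3-week arrays and from 3.16 to 3.25 on the wild-type 3-week arrays, against 4.40 and 4.44 in untreated heterozygous and 4.50 and 4.41 in untreated wild-type cortex. Fatty acid oxidation ran from 2.57 to 3.10 on heterozygous and from 1.68 to 2.24 on wild-type 1-week arrays, and from 2.47 to 2.87 on heterozygous and from 2.78 to 2.84 on wild-type 3-week arrays. Mitosis genes were between -2.29 and -1.998 on all 4 untreated arrays and between -1.95 and -1.22 on all 6 arrays of 3 weeks, below every 1-week array. Injury markers were between 2.32 and 3.16 on heterozygous and between 2.77 and 3.47 on wild-type 1-week arrays. After 3 weeks they were between 3.18 and 3.39 on heterozygous arrays and between 2.71 and 3.11 on wild-type arrays, so that heterozygous arrays were the higher ones there, although no gene was called at 3 weeks.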

How the data were processed

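Total RNA from kidney cortex was labelled with Cy3 and hybridised to 1-colour Agilent arrays, 1 per sample, per the labels. Per the file headers, the deposited scanner files hold spot intensity values from Agilent Feature Extraction 10.7: a processed signal, background-subtracted and with substitute values for dim spots, with a flag for detection. A table of log2 values deposited by the authors was within 0.05 of the values computed here at every matched probe. No label or header names the centring of that table.

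From 62976 spots an array, 4259 control spots and outlier spots were left out, and spots were averaged to 45598 probes. Signals were put on the log2 scale and each array's 75th percentile was set to 0. A probe was kept if all arrays of any of the 6 groups detected it (20452 probes), and the brightest per gene was used, giving 16031 genes, 11465 with a plain symbol. Of the probe names, 21229 came from a RefSeq accession (GRCr8 gene table), 321 from a synonym, 9328 were current and 14720 are those of the files. A gene that no array of a group detected is given as "at least N-fold", against the detection limit or the probe's own value, whichever is higher.

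limma 3.58.1 in R 4.3.3 (lmFit, eBayes) fitted 1 mean per group over all 16 arrays (10 residual and 4.87 prior degrees of freedom, median residual SD 0.396), two-sided, and p-values were adjusted by Benjamini-Hochberg over the 16031 genes, with calls under 0.05. An exact permutation test of 3 against 3 arrays cannot go below 0.1. On simulated data for the 1-week difference, with 16031 genes, 17 of 100 genes changed by 1 log2 unit and 85 of 100 changed by 2 were called, with 5 false calls. The simulated noise was independent between arrays, with 1 spread per gene. No simulated array stood apart as wild-type replicate 3 did, so these rates need not hold for the calls made here. Figures used matplotlib 3.10.9 with Python 3.11.15.

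Named genes are Brca1; the 12 largest called differences in each direction with groups apart (10 were called lower, so genes not called, such as Psmb9, fill the set); the 4 smallest p-values of each of 30 lists; Havcr1, Lcn2, Spp1, Slc7a11, Tfrc, Hmox1, Gpx4, Cdkn1a and Mki67; and the 6 smallest p-values of the interaction and of the change between 1 and 3 weeks. Comparison, rule and lists were chosen with earlier results of these data known, and others are named where said. A few genes chosen this way are left out of the text. Alternatives were the background correction, scaling, filter, samples, slide, probe choice, weights, replicate block and each array left out. Array brightness as a covariate was added after seeing the data.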

Additional observations from a re-analysis of the deposited data

Results flagged for a closer look

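The genotype difference after 1 week differed from that after 3 weeks by a direct test of the change (limma, adjusted p under 0.05) in 19 genes. No array enters both differences. The 6 with the smallest p-values among plain symbols, as 1-week minus 3-week genotype difference on the log2 scale, were Ces1e at 6.26, Pck1 at 5.12, Upb1 at 4.00, Fn3k at 3.00, Pfn3 at 2.97 and Sbspon at 2.28. The 1-week means of Ces1e were -0.43 in heterozygous and -3.98 in wild-type cortex, its 3-week means were -3.35 in heterozygous and -0.64 in wild-type cortex, and the sizes for Ces1e, Upb1 and Pfn3 are not exact, since no wild-type 1-week array was above background for them. The 1-week means of Sbspon were 1.37 in heterozygous and 0.28 in wild-type cortex, and its 3-week means were 0.73 in heterozygous and 1.92 in wild-type cortex. Its 1-week difference alone had an adjusted p of 0.058. Leaving out 1 array gave between 0 and 93 such genes, so these calls depend on single arrays, and causes were not tested.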

How the results depend on the processing

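For the 1-week genotype difference, 90 genes were called, against 2 with normexp background correction, 1 with no filter on dim probes, 0 with only the 6 arrays of 1 week in the fit, 9 with array weights, 34 with the slide as a block, 0 within slide 1, 0 within slide 2 and 13 with array brightness as a covariate, which was chosen after seeing the data. Leaving out 1 array gave 1 to 149. For the change from 1 to 3 weeks, 19 genes were called, against 1 with normexp, 6 with quantile normalization, 37 with scaling to the median, 0 with no filter, 40 with only probes above background on all 6 arrays, 44 with dim values at the detection limit, 1 with only the groups compared, 458 with array weights, 6 with the slide as a block and 0 with the brightness covariate. Leaving out 1 array gave 0 to 93. For the interaction the count was 0 in limma under every setting run except without heterozygous 1-week replicate 3, giving a range of 0 to 7. Quantile normalization, median scaling and the authors' deposited table gave 91, 79 and 90 genes for the 1-week difference. The cause of these shifts was not tested.

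With the replicate block 92 genes were called, 77 of them shared with the fit without it. Same-numbered arrays deviated together with correlations of 0.445, -0.274 and 0.318, so the numbers were not taken to pair the samples. The median of all genes was -0.27 with no filter and 0.17 within slide 1, so differences there are relative to that shift. Signal near background limits genes such as Upb1, Ces1e and Slc6a19, and 3 arrays a group limit the precision.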
